A study of Mus musculus with 18 samples.

Results

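The 10 genes described here encode cathepsins of the macrophage lysosome other than cathepsin K: Ctsl, Ctss, Ctsf and Ctso (cysteine endopeptidases), Ctsb, Ctsc, Ctsh and Ctsz (cysteine exopeptidases), Ctsd (aspartic protease) and Ctsa (serine carboxypeptidase). They were chosen by name, not by their values, though earlier results of these data were known. Each matched 1 line of a table of 34745 mouse genes. All 10 were among the 14241 genes with enough reads to be tested. RNA was sequenced from bone marrow-derived macrophages (BMDMs) of Zmat1 knockout mice and wild-type littermates, which were grown in M-CSF, the growth factor of macrophages, and then given RANKL, the cytokine that turns them into osteoclasts. The samples formed 6 groups of 3 libraries: WT and KO cells with M-CSF alone (day 0), and both after 1 day and after 3 days of RANKL in addition to M-CSF. The knockout was global, on a C57BL/6 background, and marrow came from mice of 4 to 8 weeks. M-CSF was used at 50 ng/mL and RANKL at 100 ng/mL. The labels do not say whether the libraries of a group came from separate mice, so p-values measure the spread between these libraries, which may in part be technical.

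Zmat1 itself was counted in every library, at 3.49 to 7.61 CPM (counts scaled to library size) in those labelled KO and 2.19 to 7.5 CPM in those labelled WT, so WT and KO are used here as labels. Libraries held 13789775 to 17559958 counts in all. Of the 18 libraries, 5 had titles written with 2 hyphens in place of 1 (WT day 0 library 1, one of the libraries of WT day 1 numbered 1, KO day 0 library 2, and KO day 1 libraries 1 and 2), and these stood apart. With title style as a covariate in edgeR's quasi-likelihood fit and Benjamini-Hochberg adjustment, 6 of the 10 cathepsins were higher in the double-hyphen libraries and none was lower, where 9.94% of the genes tested were higher. The log2 differences were 0.99 for Ctss, 0.91 for Ctsh, 0.86 for Ctsd, 0.64 for Ctsb, 0.59 for Ctsz and 0.57 for Ctsa, with adjusted p of at most 0.0209. No day 3 library had a double-hyphen title, so fits without the double-hyphen libraries are given beside the tests of the cathepsins.

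Cathepsins are made as inactive proenzymes, carried to the lysosome mostly on mannose 6-phosphate receptors, and switched on there by acid and by cleavage. In macrophages they break down phagocytosed and autophagic material and prepare peptides for presentation on MHC class II. Cathepsin K, left out of this set, is the collagen-degrading enzyme that osteoclasts secrete onto bone.

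Many lysosomal genes carry the E-box core CACGTG near their start, the letters recognised by TFEB, TFE3, TFEC and MITF, the MiT/TFE factors. As these factors are described with the related genes further on, the promoters of the cathepsins were searched for the core, which reads the same on both strands. RefSeq promoters (GRCm38.p6, 250 bases before to 50 after each start) were found for 8 of the 10 genes, with Ctsb and Ctsh unmatched. The core was in those of Ctsl, Ctsf, Ctsd and Ctsa and not in those of Ctss, Ctso, Ctsc and Ctsz, and 7.15% of the 32851 promoters in the table held it. The windows upstream of the start are shown 5′ to 3′ on the gene's strand, with the core in capitals, because they show the letters that 4 of the 8 matched genes share.
Ctsl (chr13:64370739-64370768, - strand, core 236 bases before the start): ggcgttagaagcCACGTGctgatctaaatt
Ctsf (chr19:4855074-4855103, + strand, core 79 bases before the start): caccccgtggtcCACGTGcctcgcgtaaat
Ctsd (chr7:142387908-142387937, - strand, core 98 bases before the start): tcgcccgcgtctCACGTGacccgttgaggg
Ctsd (chr7:142388055-142388077, - strand, core 245 bases before the start): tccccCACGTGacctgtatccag
Ctsa (chr2:164833749-164833778, + strand, core 12 bases before the start): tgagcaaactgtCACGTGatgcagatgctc
Of these genes Ctsd had 2 cores before its start. Ctsa had 2 promoters in the table, of which 1 held 2 cores. The Ctsa core that is not shown lay at or after the start. Starts here are RefSeq starts, at 142387827 for Ctsd and 164833773 for Ctsa, and differ from the gene bounds given further on. The Ctsa core shown and the Ctsd core 98 bases before its start lie inside those bounds. These matches describe letters in a window and are no evidence of binding.

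Before RANKL the cathepsins covered a wide range of levels. On the FPKM scale, which is scaled to transcript length and so allows genes to be compared, Ctsb measured 4496 ± 504 and Ctsd 4434 ± 837 (mean ± SD, n = 3) in WT day 0 libraries, and the ranges of the pair overlapped. Ctss followed at 2187 ± 1071 FPKM, then Ctsz at 736 ± 152 and Ctsl at 551 ± 231, whose ranges overlapped. Ctsc, Ctsa and Ctsh came next at 166 ± 31.5, 97.8 ± 8.20 and 57.5 ± 11.0 FPKM without overlap between neighbours. Ctsf at 19.3 ± 7.24 and Ctso at 16.2 ± 1.19 FPKM were the lowest and did not differ beyond their spread. KO day 0 libraries gave the same order, apart from the overlapping Ctsb and Ctsd, with Ctsc (122 ± 39.7) and Ctsa (91.5 ± 13.0) there overlapping too. Together the 10 genes took 3.84 to 5.41% of all counts in WT and 4.14 to 5.45% in KO day 0 libraries.

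By day 3 of RANKL the cathepsins were lower in both labels. In edgeR's quasi-likelihood test with Benjamini-Hochberg adjustment over all genes tested, 9 of the 10 fell in WT libraries and 8 of the 10 in KO libraries, and none rose. Among all genes tested, 26.5% fell in WT and 22.3% in KO. The median log2 fold change of the 10 genes was -1.66 in WT and -1.42 in KO, beside -0.03 and -0.01 over all genes tested. The share of all counts taken by the 10 genes was 1.23 to 1.97% in WT and 1.43 to 2.36% in KO day 3 libraries, below every day 0 library of the same label. In 8 of the 10 genes the 3 WT day 3 libraries lay below the 3 WT day 0 libraries, where 31% of the genes tested did so, and in KO libraries this held for 9 of the 10, where 29.4% of the genes did. In bulk RNA, fewer cells of a type and less of a transcript per cell cannot be told apart.

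**Figure D1:**
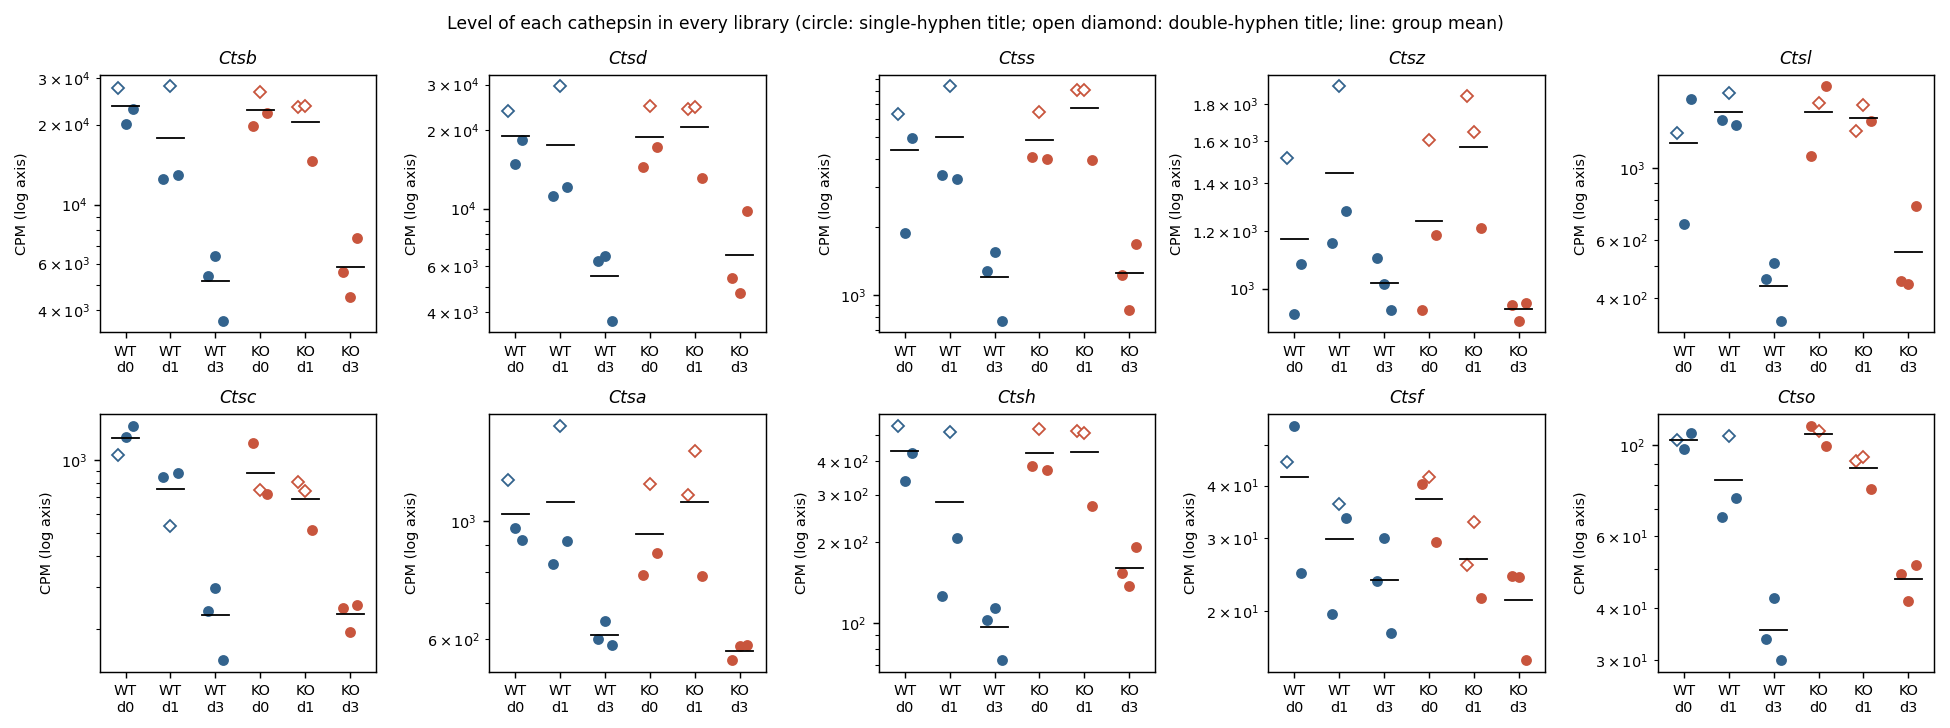
CPM of each cathepsin (log axis) in each of the 18 libraries, by label and day, with circles for single-hyphen titles, open diamonds for double-hyphen titles and a line at the group mean. In Ctsb the 6 day 3 libraries sit between 3659 and 7477 CPM and all others at 12444 or above, while the day 3 libraries of Ctsz overlap those of day 0.

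Among the cysteine endopeptidases, Ctsl, Ctss and Ctso fell in both labels, and Ctsf fell in WT libraries. Ctsl (ENSMUSG00000021477, chr13:64363214-64370306, - strand, GRCm38) encodes cathepsin L, a broad endopeptidase. It measured 1279, 674 and 1624 CPM in WT day 0 libraries 1 to 3 and 455, 513 and 341 CPM on WT day 3. In KO libraries it measured 1091, 1579.9 and 1783 CPM on day 0 and 449, 441 and 764 CPM on day 3. Groups did not overlap in either label, and WT day 0 library 2 was the lowest library of day 0. Ctsl changed by -1.45 ± 0.31 SE, adjusted p = 0.00143 (log2 fold change) in WT and -1.43 ± 0.30 SE, adjusted p = 0.00223 in KO. Ctss (ENSMUSG00000038642, chr3:95526786-95556403, + strand), which cleaves the invariant chain of MHC class II and stays active at neutral pH, was at 6291, 1873 and 4921 CPM on WT day 0 and 1276, 1546 and 768 CPM on WT day 3. The KO libraries were at 4075, 6415 and 3992 CPM on day 0 and 1225, 852 and 1678 CPM on day 3. WT day 0 library 2 was the lowest of the day 0 libraries and still lay above every day 3 library of Ctss. On the log2 scale it changed by -1.87 ± 0.49 SE, adjusted p = 0.00645 in WT and -1.95 ± 0.50 SE, adjusted p = 0.00655 in KO.

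Ctso and Ctsf had the lowest levels of the set but differed in their spread. Ctso (ENSMUSG00000028015, chr3:81932601-81956725, + strand), a cysteine cathepsin found in many tissues, was at 103, 97.9 and 107 CPM on WT day 0 and 33.8, 42.5 and 30.0 CPM on WT day 3. In KO libraries it was at 112, 108 and 99.5 CPM on day 0 and 48.6, 41.7 and 50.9 CPM on day 3. Its libraries lay close together within each day and no day 3 library reached a day 0 library. With log2 fold changes of -1.54 ± 0.16 SE in WT (adjusted p = 1.25e-05) and -1.18 ± 0.16 SE in KO (adjusted p = 0.000118), Ctso had the smallest edgeR standard errors of the 10 genes. Ctsf (ENSMUSG00000083282, chr19:4855129-4860912, + strand), whose protein has a long propeptide with a cystatin-like part, was at 45.6, 55.7 and 24.7 CPM on WT day 0 and 23.6, 29.9 and 17.7 CPM on WT day 3, and these groups overlapped. KO libraries were at 40.4, 41.9 and 29.3 CPM on day 0 and 24.2, 24.2 and 15.3 CPM on day 3, without overlap. For Ctsf the log2 fold change was -0.82 ± 0.31 SE, adjusted p = 0.0409 in WT and -0.81 ± 0.31 SE, adjusted p = 0.0501 in KO by edgeR. Whether replicate numbers pair libraries was not established. With the replicate number as a block within each label the KO change of Ctsf passed, at -0.82 with an adjusted p of 0.00767 in edgeR. The WT call of Ctsf was lost in 12 of 19 alternatives. These were leaving out WT day 0 library 1 (adjusted p = 0.115, edgeR), WT day 0 library 2 (-0.53, 0.21), WT day 3 library 1 (0.0898) or WT day 3 library 3 (0.151), the single-hyphen libraries alone (0.157), title style as a covariate (0.0627), no filter on low counts (0.0611), DESeq2's size factors (0.0502), total counts (0.198), only the compared groups fitted (0.0976), and the log2 FPKM scale with either pseudocount (0.24 and 0.246, limma).

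Of the cysteine exopeptidases, Ctsb, Ctsc and Ctsh fell in both labels and Ctsz in neither. Ctsb (ENSMUSG00000021939, chr14:63122462-63145919, + strand) encodes cathepsin B, a major lysosomal peptidase that clips dipeptides from C-terminal ends and can also cut within chains. Its level was 27485, 20128 and 22858 CPM on WT day 0 and 5382, 6435 and 3659 CPM on WT day 3. The KO levels of Ctsb were 19719.5, 26471 and 22207 CPM on day 0 and 5582, 4477 and 7477 CPM on day 3. This put every day 3 library far below every day 0 library. In edgeR's test the log2 fold change of Ctsb was -2.19 ± 0.36 SE, adjusted p = 0.000264 in WT, which is 4.55-fold lower, and -1.96 ± 0.36 SE, adjusted p = 0.000833 in KO, which is 3.90-fold lower. Ctsc (ENSMUSG00000030560, chr7:88278085-88310888, + strand) encodes dipeptidyl peptidase I, which activates the serine proteases of neutrophils and cytotoxic cells. It was at 1043, 1246 and 1383 CPM on WT day 0 and 238, 297 and 149 CPM on WT day 3. The KO levels of Ctsc were 1171, 748 and 726 CPM on day 0, with library 1 the highest, and 244, 194 and 252 CPM on day 3. Neither label had any overlap between the days. The log2 fold change of Ctsc was -2.42 ± 0.29 SE in WT (adjusted p = 2.62e-05, edgeR) and -1.94 ± 0.29 SE, adjusted p = 0.000186 in KO, and the WT value was the lowest of the 10 genes.

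Ctsh (ENSMUSG00000032359, chr9:90054152-90076089, + strand) encodes the aminopeptidase cathepsin H. Its level was 542, 337 and 427 CPM on WT day 0 and 103, 114 and 72.8 CPM on WT day 3. In KO libraries it was 383, 528 and 371 CPM on day 0 and 154, 137 and 191 CPM on day 3. The days did not overlap in either label. Ctsh changed by -2.17 ± 0.42 SE, adjusted p = 0.000778 in WT and -1.41 ± 0.41 SE, adjusted p = 0.0132 in KO on the log2 scale in edgeR's test. Ctsz (ENSMUSG00000016256, chr2:174427493-174439039, - strand) encodes cathepsin Z, a carboxypeptidase that removes single residues. It was at 1515, 923 and 1081 CPM on WT day 0 and 1103, 1014 and 933 CPM on WT day 3, and at 934, 1608 and 1186 CPM on KO day 0 and 950.5, 903 and 955 CPM on KO day 3. The days overlapped in both labels, and the highest library on day 0 was in each case the one with a double-hyphen title. For Ctsz the log2 fold change was -0.21 ± 0.24 SE, adjusted p = 0.494 in WT (95% interval -0.73 to 0.32) and -0.41 ± 0.25 SE, adjusted p = 0.191 in KO (95% interval -0.93 to 0.12). Its WT value turned positive without WT day 0 library 1 (0.05), with the single-hyphen libraries alone (0.08) and when libraries were scaled by total counts (0.17). Total-count scaling moved the median of all genes by 0.36 in WT and 0.29 in KO on day 3, and under it the direction of the other 9 genes was unchanged while the WT calls of Ctsf (-0.46) and Ctsa (-0.38) were lost.

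Ctsd (ENSMUSG00000007891, chr7:142371148-142388038, - strand) encodes cathepsin D, the main aspartic protease of lysosomes. Its level was 23779, 14856 and 18298 CPM on WT day 0 and 6285, 6576 and 3709 CPM on WT day 3. KO libraries had 14494, 24764 and 17282 CPM on day 0 and 5435, 4726 and 9769 CPM on day 3, where library 3 was the highest. Day 3 lay below day 0 in both labels without overlap. Ctsd had a log2 fold change of -1.78 ± 0.44 SE, adjusted p = 0.00412 in WT and -1.50 ± 0.43 SE, adjusted p = 0.013 in KO by edgeR's test. Ctsa (ENSMUSG00000017760, chr2:164832873-164841032, + strand) encodes cathepsin A, or protective protein, a serine carboxypeptidase that also stabilises the sialidase Neu1 and the beta-galactosidase Glb1. It was at 1194, 967 and 922 CPM on WT day 0 and 599, 648 and 584 CPM on WT day 3, and at 792, 1174 and 871 CPM on KO day 0 and 548, 581 and 584 CPM on KO day 3. The day 3 libraries of Ctsa lay within a narrow band below all day 0 libraries. Ctsa had a log2 fold change of -0.75 ± 0.24 SE, adjusted p = 0.0166 in WT and -0.73 ± 0.24 SE, adjusted p = 0.0232 in KO. Its last 1515 bases overlap Pltp on the opposite strand, which had 275920 counts over the 18 libraries beside 233137 for Ctsa. Whether counting used the strand was not given in the sources used here, so reads of the pair over that stretch cannot be told apart.

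The count of 8 in KO libraries depended on single libraries. It was 5 without KO day 0 library 2 or without KO day 3 library 2, with Ctsh (adjusted p of 0.0513 and 0.0537, edgeR), Ctsd (0.0554 and 0.0606) and Ctsa (0.119 and 0.0587) losing their calls. Ctsd also lost its KO call without KO day 3 library 1 (0.0539), and Ctsa without KO day 3 library 1 (0.0673) or library 3 (0.0508). In WT libraries Ctsa lost its call without WT day 0 library 1 (0.0782) or WT day 3 library 3 (0.0541). With the single-hyphen libraries alone, a setting chosen after seeing the data, 8 genes were lower in each label, and Ctsl, Ctss, Ctso, Ctsb, Ctsc, Ctsh, Ctsd and Ctsa each kept an adjusted p of at most 0.0184 in edgeR.

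**Figure D2:**
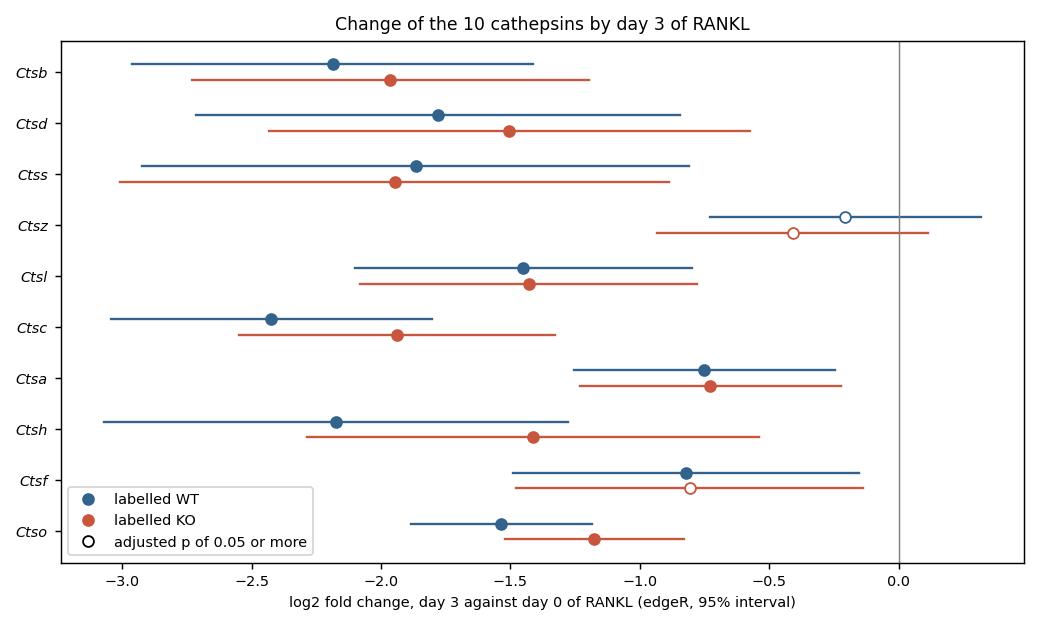
Log2 fold change of each cathepsin on day 3 against day 0 (edgeR, bars are 95% intervals), in libraries labelled WT and KO, with open circles for an adjusted p of 0.05 or more. All 20 values lie below 0, from -2.42 (Ctsc, WT) to -0.21 (Ctsz, WT), and only the intervals of Ctsz cross 0.

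By day 1 no change had passed the test. Between day 0 and day 1 none of the 10 genes was called in either label by edgeR at an adjusted p under 0.05, where 2.35% of all genes tested were called in WT and 0.0211% in KO. At an unadjusted p under 0.05 there was 1 in WT (Ctsc) and none in KO, and 20.5% and 10.2% of all genes passed that threshold. Ctsc was at 852, 532 and 879.8 CPM on WT day 1, where the second value is the double-hyphen library, and lay below all WT day 0 libraries, as 8.04% of all genes did (log2 fold change -0.70 ± 0.28 SE, adjusted p = 0.171). In KO day 1 libraries Ctsc was at 813, 739.6 and 515 CPM, overlapping day 0 (-0.36 ± 0.28 SE, adjusted p = 0.705). Ctso was at 66.7, 105 and 74.4 CPM on WT day 1 (-0.32 ± 0.16 SE, adjusted p = 0.269). It was at 91.5, 93.4 and 78.3 CPM on KO day 1, below all KO day 0 libraries, as 10.6% of all genes did (-0.28 ± 0.16 SE, adjusted p = 0.583). Ctsh was at 126, 514 and 206 CPM on WT day 1, so that the double-hyphen library was within the day 0 range and both others were below it (-0.63 ± 0.40 SE, adjusted p = 0.401). WT day 0 library 1 also had a double-hyphen title. Title style as a covariate gave -0.80 for Ctsh (adjusted p = 0.0715, edgeR) and -0.34 for Ctso (0.143) in WT, and neither passed. Without the double-hyphen library of WT day 1, Ctsh (-1.38, adjusted p = 0.0183, edgeR) and Ctso (-0.53, adjusted p = 0.0277) were called lower, and with the single-hyphen libraries alone Ctsh was (-1.19, adjusted p = 0.0364). In that fit Ctsc was at -0.59 and Ctso at -0.53 in WT (adjusted p of 0.247 and 0.0814), and in KO, with 1 library left on day 1, Ctsc was at -0.86 and Ctso at -0.41 (0.425 and 0.462), none of which passed.

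Most of the other genes were ordered by title style on day 1. Ctsb was at 12444, 27901 and 12960.2 CPM in the WT day 1 libraries, again with the double-hyphen library second, and at 23296, 23497 and 14598 CPM in the KO day 1 libraries, of which libraries 1 and 2 had double-hyphen titles. Ctsd was at 11209, 29568 and 12158 CPM in WT and 24185, 24622 and 13176 CPM in KO day 1 libraries. Ctss was at 3388, 8359.9 and 3253 CPM in WT and 8030.4, 8064 and 3929 CPM in KO day 1 libraries. In these 3 genes each of the double-hyphen libraries of day 1 was above each of the single-hyphen libraries. Ctsz and Ctsa were ordered in the same way, with Ctsz at 1158, 1906 and 1279.6 CPM in WT and 1848, 1646 and 1215 CPM in KO day 1 libraries. Ctsa was at 831, 1509 and 918 CPM in WT and 1117, 1350.2 and 787 CPM in KO day 1 libraries. Ctsl was at 1355 to 1704 CPM in WT and 1303 to 1567 CPM in KO day 1 libraries, and Ctsf at 19.7 to 36.1 and 21.6 to 32.8 CPM.

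Between day 1 and day 3, a comparison that shares the day 3 libraries with the one against day 0, 8 of the 10 genes fell in WT and 9 in KO by edgeR, where 19.3% and 15.5% of all genes tested fell. The median log2 fold change of the 10 genes was -1.61 in WT and -1.40 in KO. Ctss changed by -2.06 ± 0.50 SE, adjusted p = 0.00656 in WT and -2.41 ± 0.50 SE, adjusted p = 0.00335 in KO. Ctsb changed by -1.78 ± 0.36 SE, adjusted p = 0.00223 in WT and -1.81 ± 0.36 SE, adjusted p = 0.00243 in KO. Ctsl changed by -1.77 ± 0.31 SE, adjusted p = 0.000906 in WT and -1.36 ± 0.30 SE, adjusted p = 0.00498 in KO. Ctsz, which had not passed against day 0, was -0.51 ± 0.25 SE, adjusted p = 0.125 in WT and -0.75 ± 0.25 SE, adjusted p = 0.0353 in KO, and its KO call was lost without any 1 of KO day 1 library 1 (adjusted p = 0.153), KO day 1 library 2 (0.11) or KO day 3 libraries 1 (0.0826), 2 (0.106) and 3 (0.072). Ctsf was at -0.32 in WT and -0.33 in KO with adjusted p of 0.447 and 0.446. The log2 fold changes of Ctso, Ctsc, Ctsh, Ctsd and Ctsa were -1.21, -1.73, -1.55, -1.68 and -0.83 in WT and -0.90, -1.58, -1.43, -1.64 and -0.93 in KO, with adjusted p of at most 0.0185 in edgeR. The WT count was 5 without the double-hyphen library of WT day 1 or without WT day 3 library 3, with Ctsh, Ctsd and Ctsa losing their calls, and the WT call of Ctsa was also lost without WT day 3 library 1. Without the double-hyphen library of WT day 1 the WT values were -0.76 for Ctsh (adjusted p = 0.098, edgeR), -1.06 for Ctsd (0.0704) and -0.50 for Ctsa (0.113). With the single-hyphen libraries alone 6 genes fell in WT, and Ctsh (-0.74, adjusted p = 0.0563) and Ctsd (-1.03, 0.0502) lost their calls. The KO count was 5 without KO day 1 library 2, with Ctsz, Ctsh (adjusted p = 0.0711, edgeR), Ctsd (0.0532) and Ctsa (0.0667) losing their calls. The KO calls of Ctsh and Ctsd were also lost without KO day 1 library 1 (0.0726 and 0.0515), KO day 3 library 1 (0.0584 and 0.0556) or KO day 3 library 2 (0.076 and 0.0661). With title style as a covariate the KO values of Ctsh (-0.77, adjusted p = 0.0735) and Ctsz (-0.33, 0.0907) no longer passed, and Ctsd (-1.01, 0.0385) and Ctsa (-0.51, 0.0133) passed at smaller values. The KO count was 0 with the single-hyphen libraries alone, which leave 1 KO day 1 library, assumed to vary like the other groups. There the KO values of Ctsl (-1.30), Ctss (-1.62), Ctso (-0.70), Ctsb (-1.29) and Ctsc (-1.13) had adjusted p from 0.0557 to 0.116 in edgeR. The KO values of Ctsd (-0.96), Ctsh (-0.72), Ctsa (-0.43) and Ctsz (-0.34) were smaller than with all libraries and had adjusted p of 0.181, 0.175, 0.117 and 0.284.

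The label made no difference that passed the test. None of the 10 genes was called between KO and WT on day 0, day 1, day 3 or as the average of the days in edgeR's test, nor did the change from day 0 to day 3 differ between labels. Among all genes tested, 0.119%, 0.112%, 0.14% and 1.59% were called in the first 4 of these comparisons and 0% in the last. At an unadjusted p under 0.05 there was 1 of the 10 on day 3 (Ctso) and none in the other 4 comparisons. Of all genes 7.59% passed that threshold on day 0, 7.9% on day 1, 10.7% on day 3, 18.4% as the average of the days and 5.4% for the change from day 0 to day 3. On day 3 Ctso was at 47.1 ± 4.82 CPM in KO and 35.4 ± 6.41 CPM in WT libraries (log2 fold change 0.41 ± 0.16 SE, adjusted p = 0.392), and the groups overlapped by 1 library. Ctsh was at 161 ± 27.7 and 96.5 ± 21.2 CPM, and its 3 KO libraries lay above its 3 WT libraries, as 15.9% of all genes did (log2 fold change 0.74 ± 0.40 SE, adjusted p = 0.541, 95% interval -0.13 to 1.60). Ctsa lay below in KO without overlap, as 13.3% of all genes did, but by less than 1 CPM between the nearest libraries (-0.10, adjusted p = 0.907).

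The label values of the other days did not pass the test either. On day 0 Ctsc was at 882 ± 251 CPM in KO and 1224 ± 171 CPM in WT libraries (-0.47 ± 0.28 SE, adjusted p = 0.748), and the value was -0.48 with the single-hyphen libraries alone. On day 1 Ctsh was at 433 ± 140.3 CPM in KO and 282 ± 205 CPM in WT libraries (0.62 ± 0.40 SE, adjusted p = 0.715). Of the day 1 libraries 2 KO and 1 WT had double-hyphen titles, in which Ctsh was higher. This value was 0.71 with the single-hyphen libraries alone, which leave 1 KO library on day 1. It was 0.43 with title style as a covariate (adjusted p = 0.462, edgeR). Leaving out the double-hyphen library numbered 1 of WT day 1 gave 1.38 (adjusted p = 0.0683), and leaving out the single-hyphen one of that number gave 0.27 (0.955). As the average of the days Ctsh was 0.44 ± 0.23 SE, adjusted p = 0.328 and Ctso 0.19 ± 0.09 SE, adjusted p = 0.297, and with the single-hyphen libraries alone they were 0.47 and 0.20. Ctsh was called as the average of days when the double-hyphen library of WT day 1 was left out (0.70, adjusted p = 0.0358, edgeR). That left no double-hyphen WT library on day 1 beside 2 in KO. With title style as a covariate the average was 0.38 for Ctsh (adjusted p = 0.112, edgeR). The difference between labels in the change from day 0 to day 3 was 0.76 ± 0.57 SE for Ctsh and 0.36 ± 0.23 SE for Ctso, both with an adjusted p of 0.926 in edgeR. Over the 10 genes the label values ranged from -0.47 to 0.32 on day 0, from -0.15 to 0.62 on day 1 and from -0.16 to 0.74 on day 3.

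The makeup of the cathepsin transcripts differed between the days, which is given here as a description. On the FPKM scale Ctsz made up 5.26 to 6.11% of the summed FPKM of the 10 genes on WT day 0 and 14.0 to 21.0% on WT day 3. In KO libraries it made up 5.53 to 6.26% on day 0 and 10.6 to 17.3% on day 3, so that the days did not overlap in either label. Ctsb made up 33.1 to 40.5% on WT day 0 and 24.7 to 27.0% on WT day 3, and Ctsd 33.1 to 36.6% and 31.0 to 35.3%, which overlapped. On WT day 3 Ctsz (827 ± 61.2 FPKM) came after Ctsd and Ctsb in the order, with a range that overlapped that of Ctss (777 ± 241), and Ctsa (75.1 ± 2.49) stood above Ctsc (39.5 ± 12.0) without overlap. In KO day 3 libraries Ctss (787 ± 233 FPKM) and Ctsz (739 ± 29.6) overlapped too, and Ctsa (68.1 ± 2.10) again stood above Ctsc (38.7 ± 4.83).

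Ctsk, the osteoclast cathepsin, was higher on day 3. It was at 4.44 to 15.3 FPKM in WT and 12.6 to 15.9 FPKM in KO day 0 libraries, and at 3077 to 4709 and 1525 to 3401 FPKM on day 3. Its share of the summed FPKM of the 11 cathepsins was 0.0454 to 0.113% on WT day 0 and 36.4 to 55.9% on WT day 3, and 0.0974 to 0.125% and 18.4 to 44.9% in KO libraries. Without Ctsk the summed FPKM of the 10 genes was 3712 to 5768 on WT day 3 and 4182 to 6760 on KO day 3, beside 9777 to 14995 and 11340 to 15301 on day 0.

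**Figure D3:**
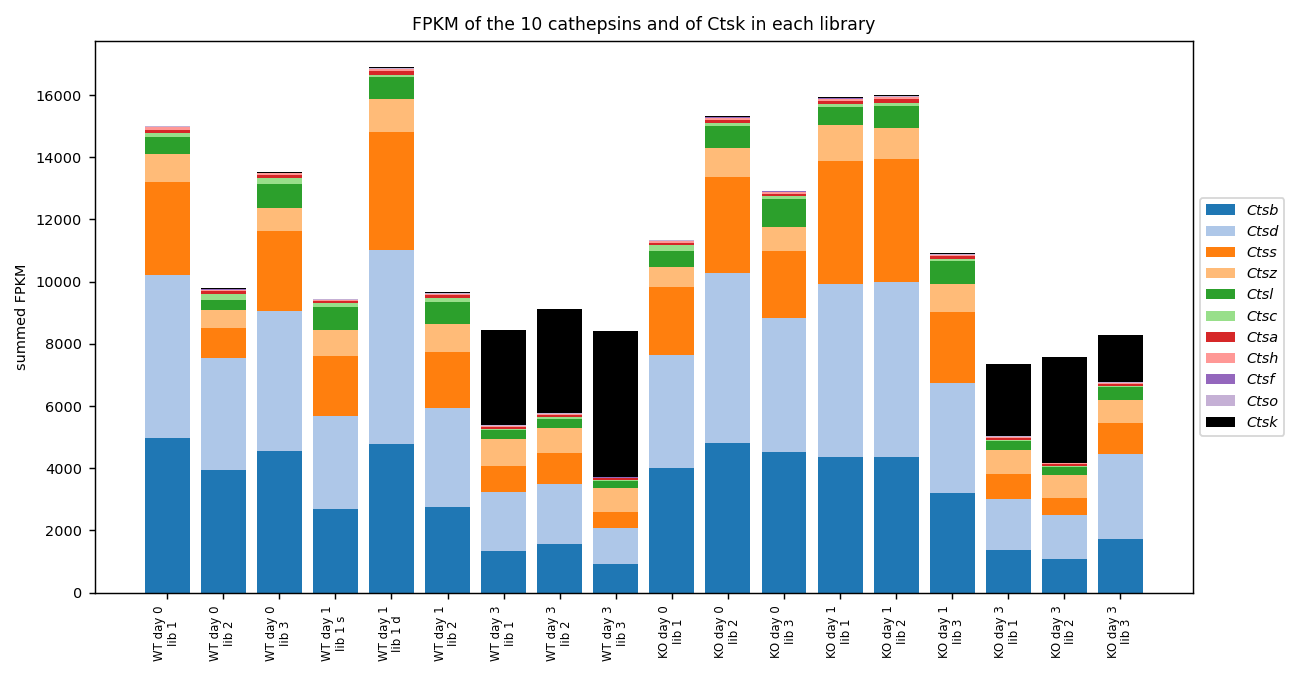
Stacked bars of the FPKM of the 10 cathepsins and of Ctsk (black, on top) in each of the 18 libraries, with lib 1 s and lib 1 d for the single- and double-hyphen libraries of WT day 1 numbered 1. Ctsk is not visible on days 0 and 1 and makes up 18.4 to 55.9% of each bar on day 3.

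Genes tied to the cathepsins by role moved in both directions by day 3. These lists were named by role, and none of their genes was chosen for its values, though earlier results of these data were known. Of 13 other cathepsin genes 3 had enough reads to be tested, and of these Ctsk rose (log2 fold change 7.97 in WT and 7.10 in KO) and Ctsg, the serine cathepsin G of neutrophil granules, fell. Ctsg went from 1.24 to 9.65 to 0 to 0.112 CPM in WT and from 4.31 to 45.5 to 0.238 to 1.19 CPM in KO libraries. WT day 3 libraries held 0 to 2 counts of Ctsg, so that its fold change is poorly set. Ctse, also tested, passed in neither label, at 10.5 to 13.5 CPM on WT day 0 and 0.393 to 1.35 CPM on WT day 3. Its KO libraries spread from 7.08 to 224 CPM on day 0 and from 0.918 to 65 CPM on day 3. Of the cystatins and stefins, the inhibitors of cysteine cathepsins, 5 of 9 were tested, with 1 higher and 2 lower in each label. Cst3, the secreted cystatin C, fell from 1186 ± 127 to 569.9 ± 36.1 CPM in WT (-1.06 ± 0.15 SE, adjusted p = 9.14e-05) and from 1174 ± 60.3 to 511 ± 23.2 CPM in KO (-1.20 ± 0.15 SE, adjusted p = 7e-05). Cstb, the cytosolic stefin B, rose in WT by edgeR (0.91 ± 0.23 SE, adjusted p = 0.00516) and was at 0.22 in KO (adjusted p = 0.451). Cst6 passed in KO libraries on 0 to 2 counts on day 0 and 8 to 20 on day 3, and Stfa2l1 passed in both labels on 2 to 55 counts on day 0 and 0 to 11 on day 3, so that their fold changes are poorly set.

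Of 5 genes that process cathepsins or work beside them, 4 fell in both labels. Lgmn, the asparaginyl endopeptidase that cleaves the chains of cathepsins B, H and L, fell from 2567 ± 518 to 773 ± 205 CPM in WT (-1.73 ± 0.27 SE, adjusted p = 0.000158) and was -1.49 ± 0.27 SE in KO. Psap, the precursor of the saposins and a protein that can bind procathepsin D, changed by -2.03 and -1.75. Cd74, the invariant chain that Ctss cleaves, changed by -3.70 and -3.41. Neu1, a partner of Ctsa, changed by -0.77 and -0.78, and Glb1, the other partner, was at 0.10 and 0.13 without passing. The sorting genes divided, with 3 higher and 3 lower of 6 in WT and 2 and 2 in KO. Nagpa fell in WT, from 63.8 ± 17.4 to 39.9 ± 2.60 CPM. In KO it was at 58.1 ± 15.8 CPM on day 0 and 47.7 ± 5.01 CPM on day 3 and did not pass. Gnptab, the catalytic subunit precursor of the phosphotransferase that makes the mannose 6-phosphate tag, rose (2.50 ± 0.18 SE, adjusted p = 1.44e-06 in WT and 1.99 ± 0.18 SE, adjusted p = 9.17e-06 in KO), while Gnptg, its gamma subunit, fell (-0.84 and -0.95). Of the receptors, Igf2r rose (1.66 and 1.24), M6pr rose in WT (0.49) and was at 0.28 in KO, and Sort1, a receptor that does not need the tag, fell (-2.42 and -1.71). Igf2r (1.43, adjusted p = 0.0342, edgeR), M6pr (0.78, adjusted p = 0.0381) and Cstb (1.10, adjusted p = 0.0381) had risen by day 1 in WT. How these calls depend on title style or on single libraries was not tested. Of the 4 MiT/TFE factors Tfeb (-1.40 in WT and -1.18 in KO) and Tfe3 (-1.18 and -1.16) fell in both labels, and Tfec and Mitf passed in neither. None of these genes was called between the labels on any day.

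**Figure D4:**
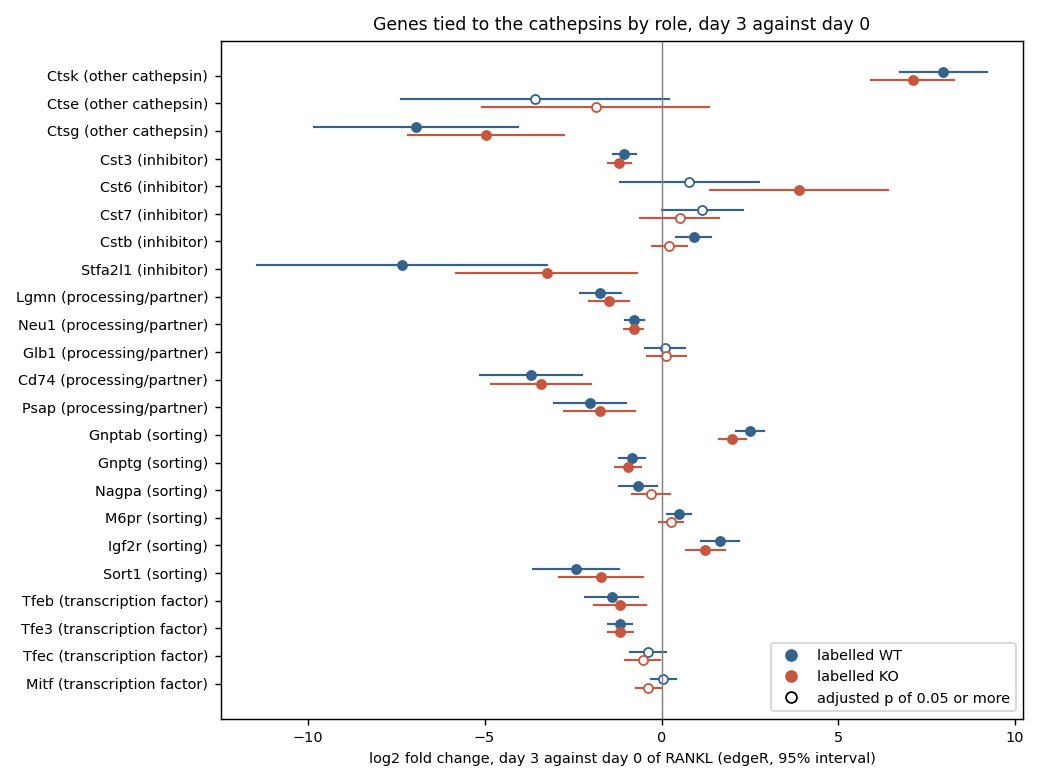
Log2 fold change on day 3 against day 0 (edgeR, bars are 95% intervals) of the 23 tested genes tied to cathepsins by role, in libraries labelled WT and KO, with open circles for an adjusted p of 0.05 or more. Ctsk, Gnptab and Igf2r lie to the right in both labels and Lgmn, Psap, Cd74, Neu1, Cst3, Gnptg, Sort1, Tfeb and Tfe3 to the left; the value of Stfa2l1 in WT rests on libraries with no count on day 3.

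Over the 6 group means of log2 CPM, the genes most like each cathepsin could be named, as a description of 6 points that share libraries. The gene with the highest Pearson correlation was Man2b1, the lysosomal alpha-mannosidase, for Ctsb (r = 0.9996), and Cln3, a lysosomal membrane protein, was the third (r = 0.9993). For Ctsd it was Psap (r = 0.9995). For Ctsh it was Hpse, the heparanase that is stored in lysosomes (r = 0.9975), and the second for Ctsa was Npc1, the lysosomal cholesterol transporter (r = 0.9997). For Ctss the third was the lysosomal channel Mcoln2 (r = 0.9959). The first genes for Ctsl, Ctso, Ctsc, Ctsz and Ctsf were Cdipt, Fez2, Cdkn1a, Adra1a and 4930481A15Rik. With 14241 genes and 6 points these values only describe the group means. Between cathepsins the correlation ran from 0.337 (Ctsf and Ctsz) to 0.992.

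Markers of several cell types also differed between day 0 and day 3, some lists lower and some higher. For 7 macrophage markers the summed level went from 10400 to 13400 CPM on WT day 0 to 2900 to 4090 CPM on WT day 3, and from 9050 to 10400 to 2920 to 3460 CPM in KO, with 6 of 7 lower in each label. The 8 osteoclast markers, Ctsk among them, went from 104 to 522 to 15200 to 22400 CPM in WT and from 524 to 815 to 7840 to 17000 CPM in KO, with 7 of 8 higher in each and Calcr at 0 on days 0 and 1. The 8 neutrophil markers went from 682 to 3110 to 37.9 to 70.8 CPM in WT and from 3740 to 12100 to 102 to 1180 CPM in KO, with all 8 lower in each, and 3 of the 8 were higher in KO as the average of the days. The 8 stromal markers went from 106 to 5000 to 11500 to 14900 CPM in WT and from 1230 to 3970 to 20500 to 30400 CPM in KO, with 6 and 7 higher. Dendritic cell markers summed to at most 12.9 CPM, those of B cells to at most 41.2 CPM and those of T or NK cells to at most 3 CPM in any library. The part of these cells in the cathepsin changes was not tested.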

How the data were processed

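The deposited table gave, for each gene and each of the 18 libraries, a whole-number read count and an FPKM value. The authors extracted total RNA, built mRNA libraries with a SMARTer kit and computed FPKM with StringTie and Ballgown, and the submitters' processing notes name the mouse build GRCm38.p4 (mm10). The aligner, the counting program and the use of strand were not given in the sources used here. All sample columns were used.

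The tests used edgeR 4.0.16 under R 4.3.3. The default of filterByExpr kept 14241 genes, TMM factors scaled the libraries, and glmQLFit and glmQLFTest fitted the 6 groups in 1 model. P-values are 2-sided, adjusted by Benjamini-Hochberg over all genes tested and called under 0.05. CPM are counts scaled to the TMM-adjusted library size. SE come from the quasi-likelihood F statistic. Fold changes on the FPKM scale were fitted in limma 3.58.1 on log2(FPKM + 1) as an alternative, and DESeq2 1.42.0 was another. The procedure was also run on simulated counts. These were drawn without a title-style effect, so that run cannot show how title style affects the results. Genes named were the 10 cathepsins, lists of genes tied to them by role, and for each cathepsin the 3 genes most correlated over the group means. The genes and lists were chosen with earlier results of these data known.

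Deviations from the group means correlated between KO libraries of the same number on days 0 and 3 (r from 0.13 to 0.398, 3 of 3 pairs above 0.1). On days 1 and 3 they did so too (0.156 to 0.34, 3 of 3). For WT days 0 and 3, 1 of 3 pairs was above 0.1. No correlation was computed between libraries of different numbers, so pairing by number was not established. The labels do not say what a number shares. WT day 1 had 2 libraries numbered 1 and none numbered 3.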

Additional observations from a re-analysis of the deposited data

How the results depend on the processing

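For 54 fold changes of the 10 cathepsins given above, 1051 refits under 31 settings were made. Fold changes of the related genes were not followed in them. Of the refits, 965 kept direction and side of the threshold, 68 lost the call, 9 gained it and 9 changed sign. The sign changes were in genes that had not been called. Ctsz on day 3 against day 0 in WT became 0.17 with total counts, 0.0199 with title style as a covariate, 0.19 with log2(FPKM + 1) and 0.19 with log2(FPKM + 0.1), 0.0835 with the single-hyphen libraries and -0.322 to 0.0528 with single libraries left out (highest without WT day 0 library 1). Ctsf on day 3 against day 1 became 0.0027 in WT with log2(FPKM + 1), 0.0033 with log2(FPKM + 0.1), and 0.0167 in KO with the single-hyphen libraries. The fit of the single-hyphen libraries was chosen after seeing the data.

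The number of the 10 genes called on day 3 against day 0 was 7 to 9 in WT over all settings, and 5 to 8 in KO when single libraries were left out. Day 3 against day 1 gave 5 to 8 in WT and 5 to 9 in KO with single libraries left out. It gave 5 in WT with only the compared groups fitted and 5 with a replicate block within label, and 0 in KO with the single-hyphen libraries. Day 1 against day 0 in WT gave 0 to 2 with single libraries left out and 1 with the single-hyphen libraries. The label gave 0 under every setting on each day, and 0 to 1 as the average of the days with single libraries left out.

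With the replicate number as a block over all libraries (replicate block), 9 genes were called on day 3 against day 0 in each label and Ctsf in KO gained a call (adjusted p = 0.00489, edgeR). The same KO call was gained with DESeq2's Wald test (0.0443), with only the compared groups fitted (0.0267) and with the average of the WT day 1 libraries numbered 1 (0.0443). The WT call of Ctsf on day 3 against day 0 was lost in 12 of 19 settings, with adjusted p of 0.0502 to 0.246 there, among them the compared groups alone (0.0976). On the log2(FPKM + 1) scale in limma Ctsa was -0.37 in WT and -0.41 in KO on day 3 against day 0, and passed in both. The causes were not tested. On day 3 the label value had an SE of 0.40 for Ctsh and 0.16 for Ctso, so that the genes were measured with unequal precision.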
